A study of Mus musculus with 16 samples.

Results

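The genes described here are 10 transcripts that the RAS-RAF-MEK-ERK kinase pathway induces and that act back on it or carry its output to the genome. They are the dual-specificity phosphatases Dusp4, Dusp5 and Dusp6, the sprouty genes Spry1, Spry2 and Spry4, the sprouty-related genes Spred1 and Spred2, and the ETS-family transcription factors Etv4 and Etv5. They were taken by gene symbol from a table of 40840 mouse genes, and were chosen with earlier results of these data known. Their counts beside the shares over all genes are therefore a description of a chosen set. All 10 were in the table, and all 10 were among the 20444 genes with at least 10 counts in total that were tested. The question was whether this transcript output of the pathway was lost, kept or raised in cells that received sorafenib.

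The cells were p53-/-; Myc hepatoblasts, mouse fetal liver progenitors without p53, a tumor suppressor, that express the oncogene Myc in excess, and the labels call their cell type HCC. They received sorafenib at 8.5 µM, a dose given in the study's methods, or its vehicle, dimethyl sulfoxide (DMSO), for 48 hours or for 7 days. The 4 groups were thus DMSO 48 h, sorafenib 48 h, DMSO 7 d and sorafenib 7 d, each with 4 libraries, 16 in all, and every group carries the same p53 loss and the same Myc overexpression. All libraries come from 1 cell line, and the labels do not say whether the 4 of a group were separate cultures, so the tests measure the spread between these libraries, which may be technical. RNA was read as bulk stranded mRNA libraries, and neither ERK phosphorylation nor any protein is part of these data.

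ERK is the last kinase of a cascade that growth factor receptors start through RAS, RAF and MEK. Active ERK switches on a small set of genes whose products damp the cascade: DUSP phosphatases strip the phosphates from ERK itself, and sprouty and SPRED proteins act upstream at RAS and RAF. The same signal relieves repression by capicua, a DNA-binding protein that ERK signaling inactivates, and Etv4 and Etv5 are among the best known genes that capicua holds down. Because they follow ERK activity closely, these transcripts are widely used as its readout. Sorafenib inhibits RAF kinases and several receptor tyrosine kinases, and drugs of the RAF inhibitor class are known to lower ERK signaling in some cells and to raise it in others.

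The promoter sequences are shown first because they divide the 10 genes without use of the counts. All 10 were chosen as transcripts of this pathway, and Etv4 and Etv5 are known capicua targets. Octamers in these windows are therefore not independent of the choice of genes. The 250 bases before the start of each gene's canonical transcript were read from the GRCm39 genome with GENCODE vM39 and searched on both strands for the capicua octamers TGAATGAA and TGAATGGA. An octamer was found in 4 of the 10 promoters (Dusp4, Spry4, Etv4 and Etv5), against 372 of 19282 promoters of genes in the table (1.93%). Etv4 held 3 octamers, a number reached by 16 of the 19282. The same windows were searched for an ETS core (CCGGAA, in 13.3% of all promoters), an AP-1 site (TGACTCA, in 3.97%) and a cAMP response element (TGACGTCA, in 1.8%). Among the 10 genes, Spry4 held the ETS core, Etv5 held the AP-1 site and none held the cAMP element. A match describes letters in the window and is not a measured binding site.

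Printed here, 5′ to 3′ on the strand of the gene, are the promoter windows of Etv4, Etv5 and Dusp4, which hold capicua octamers, and that of Dusp5, which holds none. Dusp6 also holds none. Capitals mark the capicua octamers and, in Etv5, also the AP-1 site TGACTCA, which stands before the octamer. The windows lie at chr11:101676198-101676447 on the minus strand for Etv4, at chr16:22258484-22258733 on the minus strand for Etv5, at chr8:35274192-35274441 on the plus strand for Dusp4 and at chr19:53517282-53517531 on the plus strand for Dusp5. In Etv4 the octamers sit at -174 to -167, -138 to -131 and -119 to -112 from the transcript start, in Etv5 at -195 to -188 and in Dusp4 at -90 to -83.
Etv4: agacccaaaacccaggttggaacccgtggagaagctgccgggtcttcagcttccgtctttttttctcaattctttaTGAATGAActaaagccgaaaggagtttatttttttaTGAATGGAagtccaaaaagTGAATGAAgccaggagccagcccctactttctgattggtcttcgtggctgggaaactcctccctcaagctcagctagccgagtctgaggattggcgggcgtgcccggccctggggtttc
Etv5: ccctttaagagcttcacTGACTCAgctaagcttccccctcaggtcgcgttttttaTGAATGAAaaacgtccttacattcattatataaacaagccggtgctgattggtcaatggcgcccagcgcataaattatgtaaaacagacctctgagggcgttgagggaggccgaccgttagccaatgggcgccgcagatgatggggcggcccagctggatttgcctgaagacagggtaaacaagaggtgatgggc
Dusp4: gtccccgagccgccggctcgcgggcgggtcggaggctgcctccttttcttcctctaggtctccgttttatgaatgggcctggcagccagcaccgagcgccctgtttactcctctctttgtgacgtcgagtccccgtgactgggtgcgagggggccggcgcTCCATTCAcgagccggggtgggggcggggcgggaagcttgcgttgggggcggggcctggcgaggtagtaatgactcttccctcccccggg
Dusp5: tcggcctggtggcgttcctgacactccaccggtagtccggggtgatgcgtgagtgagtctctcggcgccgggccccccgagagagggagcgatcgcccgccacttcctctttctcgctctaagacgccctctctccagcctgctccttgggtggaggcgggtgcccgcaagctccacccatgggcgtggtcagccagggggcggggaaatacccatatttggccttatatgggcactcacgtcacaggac

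Libraries held between 16586254 and 30828427 counts, with a median of 26360677. The members' own raw counts ranged from 191 to 5342 per library, and counting error at the lowest of these is 7.24%. One library stood apart before any comparison was made. In sorafenib 48 h replicate 2, genes after a place on chromosome 14 (GRCm39 position 103350847) and on chromosomes 15 to 19 and X held fewer counts than in the other replicates, by 0.727 on the log2 scale. These genes took 14.3% of its counts against 20.8 to 21.6% in the other libraries, whose own steps were at most 0.0685. Spry2, Spry4, Dusp5 and Etv5 lie in that stretch, so their 48-hour values are given with and without this library. Each of the other members was highest in this library among those of sorafenib 48 h. Without it, the small 48-hour changes of Spred1 and Spred2 were 0.1 and 0.11 on the log2 scale, against 0.13 and 0.15 with it. Counts on Trp53 (1268 to 4799 per library) and Myc (4226 to 17797) were present in all 16 libraries, and gene-level counts do not tell which exons of Trp53 they cover.

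The labelled cell type was checked against liver progenitor markers. Dlk1, Krt19 and Sox9 were counted in all libraries, whereas Hnf4a was at 0 in all 16, Alb was at 0 in 13 with at most 1 count, and Afp reached at most 14 counts. The summed level of the 10 liver progenitor markers was 34811 to 36175 normalized counts with DMSO 48 h, 12242 to 14015 with sorafenib 48 h, 18304 to 20168 with DMSO 7 d and 6040 to 6308 with sorafenib 7 d. Most of that sum was Dlk1, with means of 32234, 10444, 16766 and 4020 in these groups. Of 7 markers tested, 5 were called lower and 1 higher with sorafenib at 48 hours, and 6 lower and 1 higher at 7 days. Over all tested genes, 27.7% were called lower and 26.9% higher at 48 hours, and 27.9% and 28.9% at 7 days. Dlk1, Krt19, Epcam, Krt8 and Krt18 were lower at both times, the last 3 in the stretch with lowered counts. Only Sox9 rose, by 1.64 on the log2 scale at 48 hours (edgeR FDR = 5.71e-13) and 1.37 at 7 days (edgeR FDR = 1.84e-12). A list of 10 markers of other liver cells held Ptprc at 0 in 14 libraries, Cdh5 at 0 in 14, and Adgre1 and Lrat at 0 in all 16. Pecam1 held at most 9 counts, whereas Cd68 held 47 to 91, Kdr 26 to 270 and Des 12 to 114. Of the 6 tested, 3 were called higher and 0 lower at 48 hours, and 3 higher and 1 lower at 7 days. Kdr rose by 1.32 on the log2 scale at 48 hours and 2.65 at 7 days, and Des fell at 7 days (-1.14). The sum of this list, nearly all Acta2 and Col1a1, was 45145 to 48129, 132754 to 153618, 65394 to 67311 and 114161 to 119205 in the same order of groups. Both sums moved with treatment alongside the results that follow, and their part in those results was not tested. In bulk RNA, fewer cells of a type and less RNA per cell cannot be told apart.

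With sorafenib for 48 hours, 8 of the 10 genes rose and 2 fell (Dusp5 and Spry2). Values are normalized counts, that is, counts scaled for library size by TMM, a trimmed mean of gene ratios. Changes are log2 fold changes with their standard error (SE) from edgeR's quasi-likelihood test, and a gene was called at a Benjamini-Hochberg false discovery rate (FDR) under 0.05 over all 20444 genes. The background was high, since 26.9% of all tested genes were called higher and 27.7% lower at 48 hours. The median log2 fold change of the 10 was 0.97, against -0.05 over all 20444 tested genes (0.0208 over those with a mean of at least 100 counts). At 7 days 7 of the 10 were called higher and 3 lower (Dusp5, Spry4 and Spred1), against 28.9% and 27.9% of all tested genes, with a median of 0.21 against 0.02. The groups did not overlap for 9 of the 10 genes at 48 hours and for all 10 at 7 days, and the same held for 48.0% and 56.8% of all tested genes. Each of these 19 comparisons gave an exact two-sided permutation p of 0.0286, the smallest that the 70 splits of 8 libraries allow.

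**Figure D1:**
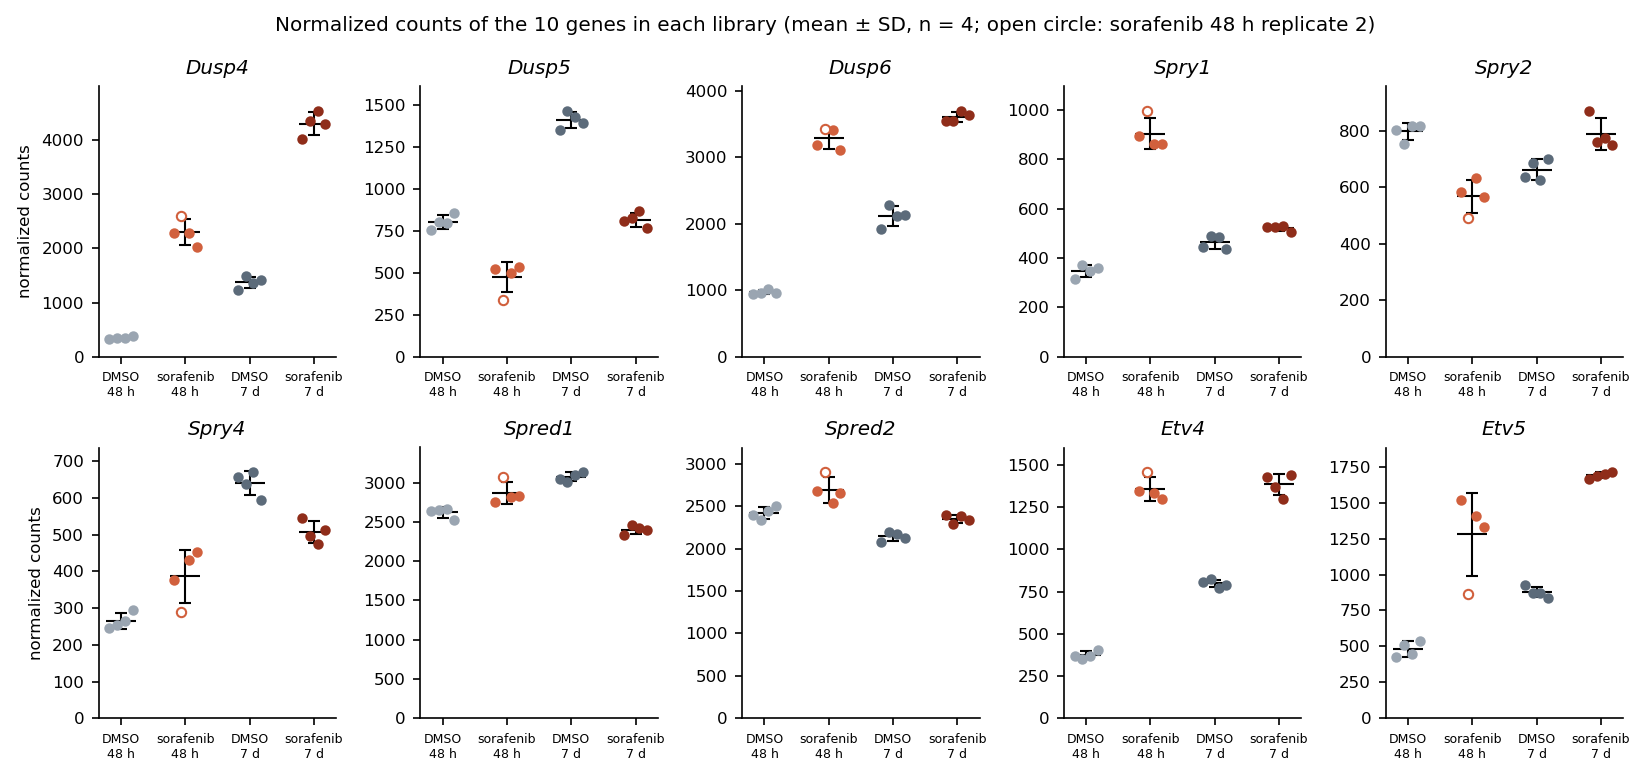
Normalized counts of the 10 genes (vertical axes, each from 0) in every library of the 4 groups (horizontal axes), with bars for mean ± SD, n = 4. The open circle is sorafenib 48 h replicate 2, which is the lowest sorafenib 48 h library for Dusp5, Spry2, Spry4 and Etv5. Dusp4, Dusp6, Etv4 and Etv5 were higher in all sorafenib libraries than in the DMSO libraries of the same time, whereas Dusp5 was lower at both times.

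Among the phosphatases, Dusp4 and Dusp6 rose at both times and Dusp5 fell at both. Dusp6 encodes a cytoplasmic phosphatase that is selective for ERK (chr10:99086564-99103361, plus strand). Dusp6 was at 944, 960.4, 1025 and 968 normalized counts with DMSO for 48 hours and at 3195, 3433, 3419.7 and 3118 with sorafenib. At 7 days, Dusp6 was at 1917, 2291, 2114 and 2139 with DMSO and at 3551, 3556, 3705 and 3642 with sorafenib. Sorafenib libraries were all above DMSO libraries of the same time, and the DMSO 7 d libraries were all above those of 48 hours. The increase was 3.38-fold at 48 hours (log2 fold change 1.76, SE 0.0492, edgeR FDR = 8.71e-17) and 1.71-fold at 7 days (0.77, SE 0.0466, edgeR FDR = 1.5e-11). Exons of Dusp6 overlap lncRNAs on the opposite strand, of which Gm34921 is in the table with 25 counts in total over all libraries.

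Dusp4 encodes a nuclear phosphatase that acts on ERK and on the stress-activated kinases (chr8:35274442-35287048, plus strand), and its promoter is among those printed above. Dusp4 was at 319.6, 344, 346 and 378 normalized counts with DMSO for 48 hours and at 2283, 2596, 2284 and 2026 with sorafenib. At 7 days, Dusp4 was at 1234, 1480.2, 1362 and 1416 with DMSO and at 4011, 4338, 4535 and 4297 with sorafenib. No group overlapped another, and the order ran from DMSO 48 h through DMSO 7 d and sorafenib 48 h to sorafenib 7 d. It had the largest change of the 10 genes at both times, 6.6-fold at 48 hours (log2 fold change 2.72, SE 0.0752, edgeR FDR = 6.93e-17) and 3.13-fold at 7 days (1.64, SE 0.0659, edgeR FDR = 2.19e-14).

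Dusp5 encodes a nuclear phosphatase that is selective for ERK and also holds it in the nucleus (chr19:53517532-53530862, plus strand). Dusp5 was at 753, 801, 793 and 854 normalized counts with DMSO for 48 hours and at 523, 340.2, 499.7 and 532 with sorafenib. At 7 days, Dusp5 was at 1349, 1465, 1429 and 1391 with DMSO and at 809.9, 824, 865 and 764 with sorafenib. Every sorafenib library was below the DMSO libraries of its time, while both treatments held more at 7 days than at 48 hours. The decrease was 1.68-fold at 48 hours (log2 fold change -0.75, SE 0.0885, edgeR FDR = 4.23e-07) and 1.73-fold at 7 days (-0.79, SE 0.0799, edgeR FDR = 4.35e-08). The value of 340.2 is from the library with lowered counts in this stretch, and without that library the 48-hour change was -0.63 (SE 0.0537, edgeR FDR = 9.73e-15).

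The opposite course of the phosphatases changed their proportions. On a per-length scale, normalized counts per kilobase of exon, Dusp4 stood at 0.374 ± 0.00658 (SD, n = 4) times the level of Dusp5 with DMSO 48 h and at 0.84 ± 0.0424 with DMSO 7 d. With sorafenib the ratio was 4.39 ± 1.48 at 48 hours and 4.55 ± 0.236 at 7 days. The range at 48 hours, 3.29 to 6.58, included the library with lowered Dusp5 counts, and even its lowest value was above the highest DMSO ratio of 0.878. Dusp6 over Dusp5 on the same scale was 0.893 ± 0.0505 and 1.1 ± 0.0467 with DMSO at 48 hours and 7 days, and 5.29 ± 1.43 and 3.25 ± 0.162 with sorafenib (SD, n = 4).

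The sprouty genes did not move as a block. Spry1 rose strongly at 48 hours and little at 7 days, Spry2 fell at 48 hours and rose at 7 days, and Spry4 rose at 48 hours and fell at 7 days. Sprouty proteins are membrane-associated inhibitors that interfere with the activation of RAS and RAF below receptor tyrosine kinases. Spry1 (chr3:37693897-37698755, plus strand) was at 316, 372, 347 and 361 normalized counts with DMSO for 48 hours and at 894, 996, 863 and 859.7 with sorafenib. At 7 days, Spry1 was at 444, 491, 487 and 435 with DMSO and at 526, 527, 530.0 and 506 with sorafenib. The wide gap at 48 hours narrowed to a small one at 7 days, where the sorafenib libraries still stood above the DMSO libraries. The increase was 2.58-fold at 48 hours (log2 fold change 1.37, SE 0.0611, edgeR FDR = 1.35e-13) and 1.12-fold at 7 days (0.17, SE 0.0605, edgeR FDR = 0.0232). The 7-day call was lost when DMSO 7 d replicate 1 (edgeR FDR = 0.0649), DMSO 7 d replicate 4 (0.0809) or sorafenib 7 d replicate 3 (0.0522) was left out.

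Spry2 (chr14:106128766-106136446, minus strand) was at 802, 755, 818 and 818 normalized counts with DMSO for 48 hours and at 582, 491, 634 and 564 with sorafenib. At 7 days, Spry2 was at 638, 686, 627 and 700.3 with DMSO and at 872, 760.2, 774 and 749.6 with sorafenib. The order of the treatments turned round between the times, with no overlap between groups at either. The change was -0.48 on the log2 scale at 48 hours (SE 0.0669, edgeR FDR = 3.37e-06) and 0.25 at 7 days (SE 0.0645, edgeR FDR = 0.00259). Without the library with lowered counts the 48-hour change was -0.42 (SE 0.057, edgeR FDR = 7.88e-09).

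Spry4 (chr18:38719300-38736025, minus strand) was at 245, 255, 265 and 294 normalized counts with DMSO for 48 hours and at 376, 289, 431 and 452 with sorafenib. At 7 days, Spry4 was at 656, 638, 671 and 596 with DMSO and at 544, 498, 474 and 514 with sorafenib. The groups overlapped at 48 hours, where the lowest sorafenib value, 289, is from the library with lowered counts, and the 7-day groups were apart in the other direction. The change was 0.56 on the log2 scale at 48 hours (SE 0.101, edgeR FDR = 7.95e-05, exact permutation p = 0.0571) and 0.67 without that library (SE 0.0745, edgeR FDR = 4.31e-11). At 7 days it was -0.34 (SE 0.0882, edgeR FDR = 0.00273). Vehicle cells alone held 2.41-fold more Spry4 at 7 days than at 48 hours (log2 fold change 1.27, SE 0.0943, edgeR FDR = 7.65e-10).

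Spred1 and Spred2 were the least changed of the 10 genes at 48 hours. SPRED proteins bring neurofibromin, a protein that switches RAS off, to the membrane. Spred1 (chr2:116951524-117018277, plus strand) was at 2639, 2652, 2665 and 2522 normalized counts with DMSO for 48 hours and at 2747, 3069.7, 2819 and 2828 with sorafenib. At 7 days, Spred1 was at 3049, 3006, 3102 and 3133 with DMSO and at 2336, 2459, 2417 and 2395 with sorafenib. The 48-hour groups lay close together, and the 7-day sorafenib libraries were all below the DMSO libraries. The change was 0.13 on the log2 scale at 48 hours (SE 0.0356, edgeR FDR = 0.00432) and -0.35 at 7 days (SE 0.0354, edgeR FDR = 3.41e-08). Scaled by total counts in place of TMM, the 48-hour change was 0.06 (edgeR FDR = 0.238), and without DMSO 48 h replicate 4 it was 0.08 (edgeR FDR = 0.0666).

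Spred2 (chr11:19874355-19974442, plus strand) was at 2401, 2338, 2446 and 2502 normalized counts with DMSO for 48 hours and at 2683, 2900.3, 2534 and 2659 with sorafenib. At 7 days, Spred2 was at 2079, 2195, 2174 and 2121 with DMSO and at 2394, 2284, 2382 and 2340.3 with sorafenib. Sorafenib libraries were above DMSO libraries at both times by a small margin. The change was 0.15 on the log2 scale at 48 hours (SE 0.0388, edgeR FDR = 0.00231) and 0.13 at 7 days (SE 0.0388, edgeR FDR = 0.00625), and with total counts the 48-hour value was 0.08 (edgeR FDR = 0.142).

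Both ETV factors rose at both times. Etv4 and Etv5 belong to the PEA3 group of ETS transcription factors, and FGF signaling through ERK induces both in developing organs. Etv4 (chr11:101660568-101676197, minus strand), whose promoter window holds 3 capicua octamers, was at 369.5, 353, 372 and 407 normalized counts with DMSO for 48 hours and at 1348, 1458, 1332 and 1296 with sorafenib. At 7 days, Etv4 was at 807, 825, 773 and 790.2 with DMSO and at 1427, 1372, 1299 and 1440.2 with sorafenib. The sorafenib groups overlapped each other across the times, whereas the DMSO 7 d libraries were all above those of 48 hours. The increase was 3.61-fold at 48 hours (log2 fold change 1.85, SE 0.0526, edgeR FDR = 1.06e-16) and 1.73-fold at 7 days (0.79, SE 0.0483, edgeR FDR = 1.68e-11).

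Etv5 (chr16:22200052-22259662, minus strand) was at 424, 511, 450.2 and 541 normalized counts with DMSO for 48 hours and at 1517, 862, 1406 and 1333 with sorafenib. At 7 days, Etv5 was at 926, 873, 873 and 839 with DMSO and at 1666, 1685, 1698 and 1713 with sorafenib. Even the library with lowered counts, at 862, was above all DMSO libraries of 48 hours. The increase was 2.66-fold at 48 hours (log2 fold change 1.41, SE 0.117, edgeR FDR = 2.13e-09), and 2.93-fold without it (1.55, SE 0.0527, edgeR FDR = 3.19e-30). At 7 days it was 1.93-fold (0.95, SE 0.109, edgeR FDR = 2.49e-07). The remaining PEA3 gene, Etv1, held at most 6 counts in any library and was at 0 in 4, and it was not called at either time.

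Whether the response differed between the times was tested as the difference of the log2 fold changes, 7 days minus 48 hours. It was lower for 7 of the 10 genes, higher for Spry2, and not called for Dusp5 and Spred2, against 21.3% of all tested genes called lower and 15.5% higher. Over all genes 4353 were called lower and 3162 higher with TMM, and 3292 lower and 4125 higher with total counts. The fall was greatest for Spry1 (-1.2, SE 0.0861, edgeR FDR = 1.02e-09), followed by Dusp4 (-1.08, SE 0.0989, edgeR FDR = 3.45e-08) and Etv4 (-1.06, SE 0.0713, edgeR FDR = 3.76e-10). The differences for Dusp6, Spry4 and Spred1 were -0.98, -0.9 and -0.48. Spry2 moved the other way, by 0.73 (SE 0.0929, edgeR FDR = 2.8e-06). For Etv5 the difference was -0.47 (SE 0.159, edgeR FDR = 0.0266) and -0.6 without the library with lowered counts (SE 0.069, edgeR FDR = 2.51e-10). Its call was lost without DMSO 48 h replicate 1 (edgeR FDR = 0.0918) or 3 (0.0816), sorafenib 48 h replicate 1 (0.0961), 3 (0.084) or 4 (0.0681), or DMSO 7 d replicate 1 (0.0517). The 95% interval of the difference was -0.292 to 0.209 for Dusp5 (edgeR FDR = 0.83) and -0.134 to 0.0955 for Spred2.

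**Figure D2:**
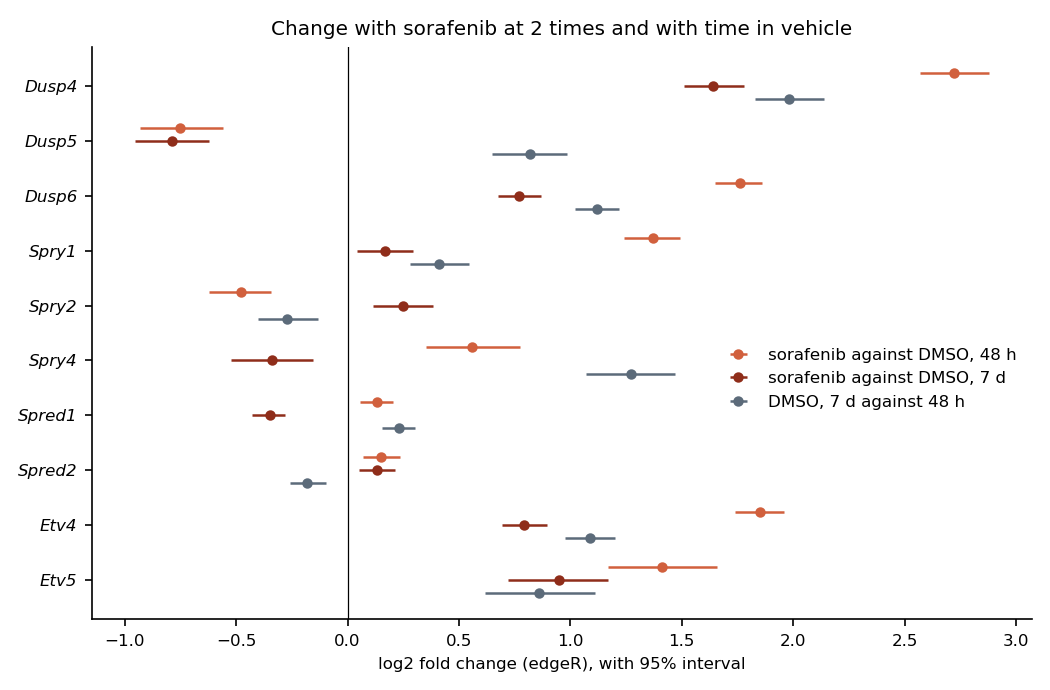
Log2 fold change (horizontal axis) of each of the 10 genes with sorafenib at 48 hours and at 7 days and, in vehicle, at 7 days against 48 hours, with 95% intervals from the edgeR fit of 16 libraries. The 48-hour points of Dusp4, Dusp6, Spry1, Etv4 and Etv5 lie right of the 7-day points, and Spry2 and Spry4 lie on opposite sides of 0 at the 2 times.

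Levels also differed between the times in cells that never received the drug. In DMSO, 8 of the 10 genes were called higher at 7 days than at 48 hours and 2 lower (Spry2 and Spred2), against 23.9% and 25.5% of all tested genes, with a median of 0.84 against -0.01. Dusp4 was 3.96-fold higher (log2 fold change 1.98, SE 0.0752, edgeR FDR = 4.31e-14), Dusp6 2.17-fold (edgeR FDR = 3.21e-13) and Etv4 2.13-fold (edgeR FDR = 1.63e-12). Etv5 and Dusp5 were 1.82-fold and 1.76-fold higher. The 7-day drug effect on these genes was read against vehicle libraries in which they already stood higher. Under sorafenib, 6 genes were called higher at 7 days and 3 lower, against 17.5% and 22.3% of all tested genes. Dusp4 was 1.87-fold higher there (edgeR FDR = 7.49e-10), Dusp6 1.1-fold (edgeR FDR = 0.0256, and 0.0721 or 0.0563 without sorafenib 7 d replicate 3 or 4), and Etv4 differed by 0.03 with a 95% interval of -0.0706 to 0.128 (edgeR FDR = 0.677). Spry1 was 1.72-fold lower at 7 days under sorafenib (edgeR FDR = 1.53e-09). These contrasts share libraries with the drug contrasts, and time in culture cannot be told apart from any difference in handling between the 2 times.

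Compared per kilobase of exon, the order of the 10 genes changed with treatment. With DMSO 48 h the highest level was that of Spred2 (397.4 ± 11.4 normalized counts per kilobase, SD, n = 4), followed by Spred1 and Dusp5, whose libraries overlapped, and Dusp6 (287.3 ± 10.4). Dusp4 and Etv4 shared a level (120.6 ± 8.26 and 118.3 ± 7.16, overlapping), and Spry4 was lowest (40.1 ± 3.17). With sorafenib 48 h, Dusp6 (970.6 ± 46.9) and Dusp4 (798.5 ± 81.1) led, and Etv4 (428.2 ± 22) overlapped Spred2 (442.0 ± 25). Dusp5, Spry1, Etv5 and Spry2 could not be ordered there, since each overlapped the next. The lowest values of Dusp5 and Etv5 there, 137.1 and 114.8, are from the library with lowered counts, as is the highest of Spry1, 208.8. The order without that library was not tested. With DMSO 7 d, Dusp6 (623.8 ± 45.3) and Dusp5 (567.7 ± 20) led and overlapped, and with sorafenib 7 d Dusp4 (1493 ± 75.1) stood above Dusp6 (1065.6 ± 21.8) with no overlap. Spry4 remained the lowest by mean in all 4 groups, and its libraries overlapped those of Spry1 with DMSO 7 d.

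Summed per kilobase, the 10 genes stood at 1916 ± 50.7 with DMSO 48 h, 3728 ± 109.4 with sorafenib 48 h, 3108 ± 110.9 with DMSO 7 d and 4584 ± 79.4 with sorafenib 7 d (SD, n = 4). Dusp4 made up 6.29 ± 0.277% of that sum with DMSO 48 h, 21.4 ± 1.57% with sorafenib 48 h, 15.3 ± 0.665% with DMSO 7 d and 32.6 ± 1.11% with sorafenib 7 d. The share of Spred1 and Spred2 fell with the drug at both times, and also with time in DMSO. Spred2 held 20.7 ± 0.38% with DMSO 48 h, 11.9 ± 0.58% with sorafenib 48 h, 11.3 ± 0.191% with DMSO 7 d and 8.41 ± 0.229% with sorafenib 7 d. Spred1 held 17.6 ± 0.819%, 9.9 ± 0.381%, 12.7 ± 0.552% and 6.75 ± 0.127% in the same order. The sum thus rose with the drug mostly through Dusp4, Dusp6 and Etv4, whose shares are the ones that grew at both times together with that of Etv5.

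**Figure D3:**
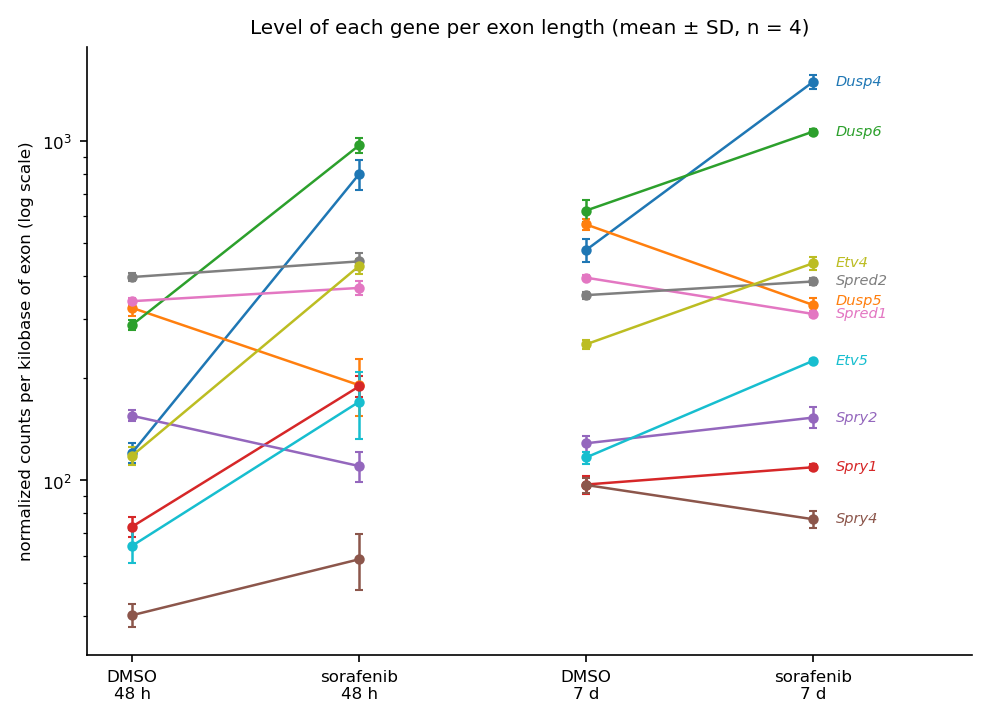
Level of each gene in normalized counts per kilobase of exon (vertical axis, log scale) in the 4 groups, as mean ± SD, n = 4, with lines joining DMSO and sorafenib of the same time. Dusp4 moved from 120.6 to 798.5 at 48 hours and from 477.3 to 1493 at 7 days, while the lines of Spred1 and Spred2 stayed between 309.4 and 442.0.

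Across the 16 libraries, log2 normalized counts of Dusp6 and Etv4 followed each other most closely among the 10 genes (Pearson r = 0.993, n = 16 libraries), and Dusp6 with Dusp4 gave r = 0.983. These values are descriptions over libraries that share the same groups, and much of them is the difference between groups. Dusp5 gave r = -0.178 with Dusp4 and -0.279 with Dusp6. Among the 10646 genes averaging 100 or more normalized counts, the genes most like Dusp6 were Enc1, Ccn2 and Csrp1, each with r = 0.999 over the 16 libraries. Ccn2, a matricellular protein, went from 298.5 to 18636 normalized counts at 48 hours and from 4085 to 24739 at 7 days. The genes most like Etv5 were Flna (r = 0.993), Hes1 (0.99) and Myh9 (0.989), and those most like Spry4 were Bysl (0.963), Ccdc86 (0.959) and Mirt1 (0.957). All 6 of these lie, like Etv5 and Spry4, in the stretch with lowered counts in sorafenib 48 h replicate 2, and the part of that library in the likeness was not tested.

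The other genes of the pathway showed a mixed picture in the same tests. Over all tested genes, 26.9% were called higher and 27.7% lower at 48 hours, and 28.9% and 27.9% at 7 days. Of 7 other MAP kinase phosphatases, 4 rose and 1 fell at 48 hours, and 4 rose and 2 fell at 7 days. The largest changes were in phosphatases of the stress-activated kinases: Dusp8 changed by 4.01 on the log2 scale at 48 hours (edgeR FDR = 1.3e-18) and 1.62 at 7 days, and Dusp10 by 1.73 and 2.3. Dusp1, an immediate-early gene, changed by 0.61 and 1.67, and it lies in the stretch with lowered counts. Of 9 other genes grouped as inhibitors of the pathway, 7 rose and 2 fell at 48 hours, and 6 rose and 2 fell at 7 days. The risers at both times include Peak1 (0.89 and 0.33), a scaffold pseudokinase that is not classed as an inhibitor. Il17rd, also known as Sef and an inhibitor of FGF signaling, changed by 0.14 at 48 hours (edgeR FDR = 0.0314) and by -1.8 at 7 days (edgeR FDR = 5.44e-16). Nf1, which encodes neurofibromin, the partner of SPRED proteins, changed by 0.75 and 0.34. Of the close relatives, Spry3 fell at both times (-0.36 and -0.97), and Spred3 was not called at 48 hours (-0.03) and rose by 0.29 at 7 days. The position of Spry3 was not determined, so it may lie in the stretch with lowered counts. Its 48-hour libraries ranged from 248 to 350.8 normalized counts with sorafenib and from 379.1 to 445.9 with DMSO.

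Of 17 other transcripts that ERK is known to induce, 10 rose, 3 fell and 4 were not called at 48 hours, and 11 rose, 5 fell and 1 was not called at 7 days. Of all tested genes, 26.9% were called higher and 27.7% lower at 48 hours, and 28.9% and 27.9% at 7 days. The median log2 fold change of the 17 was 1.1 at 48 hours and 0.64 at 7 days, against -0.05 and 0.02 over all tested genes. The largest changes were those of Epha4, an ephrin receptor (3.83 and 2.17), Ereg, a ligand of the EGF receptor family (2.94 and 3.86), and the AP-1 subunit gene Fosl1 (2.04 and 3.02, in the stretch with lowered counts). Ereg held few counts in vehicle, at 6.3 normalized counts with DMSO 48 h and 19 with DMSO 7 d, against 48.2 and 275.6 with sorafenib. The immediate-early genes Egr1 and Fos, named here after their values were seen, went the other way. Egr1 changed by -0.84 (edgeR FDR = 2.48e-06) and -1.38 (edgeR FDR = 2.66e-09), and Fos by -1.96 (edgeR FDR = 5.68e-14) and -0.4 (edgeR FDR = 0.000291). Egr1 lies in the stretch with lowered counts, and without sorafenib 48 h replicate 2 its 48-hour change was -0.69 (SE 0.0459, edgeR FDR = 1.9e-18). Junb, another immediate-early gene named after its values were seen, was called higher by a small margin at both times (0.15, edgeR FDR = 0.04, and 0.14, edgeR FDR = 0.0413). Egr2, Egr3 and Lif of the 17 were called lower at 7 days only (-0.9, -0.91 and -0.68), and Lif had risen at 48 hours (1.19). The transcript output of the pathway was thus neither lost nor raised throughout. Most of the 10 genes and of the 17 other transcripts rose, and of these Dusp5, Egr1 and Fos fell at both times. Among the other phosphatases, inhibitors and close relatives, Dusp9 (-0.38 and -1.51), Pebp1 (-0.46 and -0.24) and Spry3 also fell at both times. Dusp9 lies in the stretch with lowered counts, and the position of Spry3 was not determined.

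**Figure D4:**
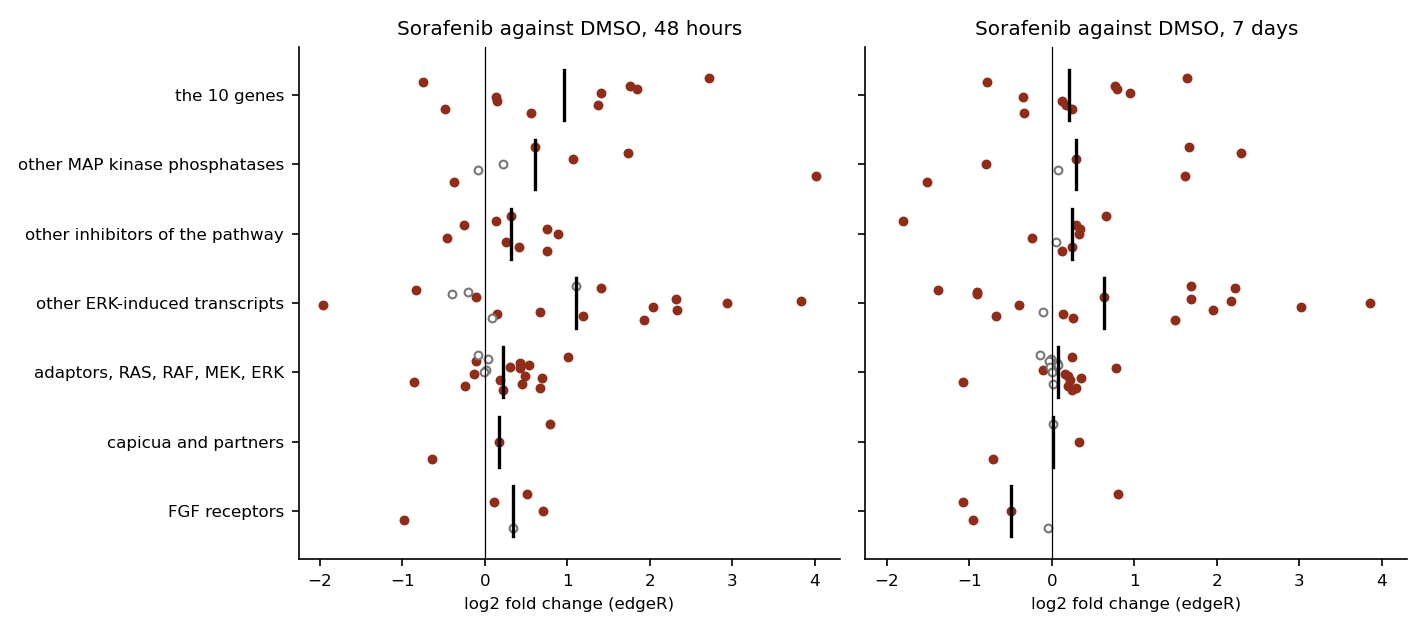
Log2 fold change (horizontal axes) of each tested gene of 7 lists with sorafenib against DMSO at 48 hours and 7 days, with filled points for genes called at an edgeR FDR under 0.05, open points for genes not called and bars for list medians. The median of the 10 genes was 0.97 at 48 hours and 0.21 at 7 days, and that of other ERK-induced transcripts was 1.1 and 0.64. The list labelled other inhibitors of the pathway includes Peak1, which is not classed as an inhibitor.

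The kinases and adaptors themselves changed less. Of 19 genes from the adaptors to ERK and its substrate kinases, 11 rose, 4 fell and 4 were not called at 48 hours, with a median of 0.22, and 9 rose, 2 fell and 8 were not called at 7 days, with a median of 0.08. Braf rose by 1.01 at 48 hours (edgeR FDR = 1.22e-15) and 0.25 at 7 days, the MEK gene Map2k1 by 0.42 and 0.78, and Rps6ka1, a kinase downstream of ERK, fell by 0.86 and 1.07 on the log2 scale. The capicua gene Cic fell by 0.64 at 48 hours (edgeR FDR = 7.16e-11) and 0.71 at 7 days (edgeR FDR = 1.33e-11). Its partner Atxn1 rose by 0.79 at 48 hours and was not called at 7 days (0.02), and Atxn1l rose by 0.17 and 0.33. Of 4 FGF receptors and the co-receptor gene Klb, 3 rose and 1 fell at 48 hours, and 1 rose and 3 fell at 7 days. For these lists too, the shares over all tested genes were 26.9% higher and 27.7% lower at 48 hours, and 28.9% and 27.9% at 7 days. Fgfr1 rose by 0.51 and 0.8, Fgfr2 changed by 0.11 and -1.07, and Fgfr4 by -0.98 and -0.96 with at most 10 counts in any library.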

How the data were processed

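RNA of p53-/-; Myc hepatoblasts was sequenced by the authors as Illumina stranded mRNA libraries, 4 in each of 4 groups, and the deposited values are raw counts of reads per gene, with no normalization. Per the labels and the submitters' processing notes, reads were aligned to GRCm39 with STAR 2.7.1a and counted with featureCounts 2.0.6. The strand setting and the gene annotation are not given in the sources used here, so reads from overlapping genes on opposite strands cannot be told apart. Groups were taken from the labels.

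Of the genes, 20396 had under 10 counts in total and were removed, and 20444 were tested. The test was edgeR's quasi-likelihood test (edgeR 4.0.16 in R 4.3.3, glmQLFit and glmQLFTest, TMM) in 1 model of 4 groups with no block, with a Benjamini-Hochberg FDR under 0.05 as the call. The study used DESeq2 1.40.2, and DESeq2 1.42.0 was an alternative. The SE is the absolute log2 fold change over the square root of F. Single genes also had an exact permutation test of 4 against 4. To give normalized counts, each count was divided by its library's effective size (total times TMM factor) and multiplied by the geometric mean of the 16 effective sizes. Replicates differed by more than counting error (lowest chi-square per gene 1.49), so none were merged.

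The place of the step in 1 library was found by least squares over genes in genome order with a mean of at least 100 counts. Of 17939 tested genes with a position, 3891 lie after it. Positions and exon lengths are from GRCm39 with GENCODE vM39. The 10 genes and the lists were chosen with earlier results of these data known. Named genes were the 10, at most 3 per list by largest change, the 3 most like Dusp6, Spry4 and Etv5, and Trp53 and Myc. Egr1, Egr2, Egr3, Fos, Junb, Lif, Dusp9 and Pebp1 fall outside that rule, as do the cell type markers. Of the markers, those at or near 0 and those that make up the sums were named, with Epcam, Krt8, Krt18, Krt19, Sox9, Cd68, Kdr and Des.

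Alternatives were DESeq2, its size factors, total counts, TMM separately before and after the step, other filters on low counts, only the 8 libraries compared, the replicate number as a block, an added threshold on the fold change, counts with no length, and each library left out in turn.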

Additional observations from a re-analysis of the deposited data

Results flagged for a closer look

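In the 40 sets of 4 libraries examined (10 genes in 4 groups), 2 held a library far from the others by Dixon's criterion, and chance alone flags about 1 in 20. Dusp5 in sorafenib 48 h replicate 2, at 340.2 normalized counts, was the lowest of its group (gap over range 0.834), and this gene lies in the stretch where that library held fewer counts. Spry1 in sorafenib 7 d replicate 4, at 505.6, was the lowest of its group (0.853).

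The response to sorafenib differed between 7 days and 48 hours by the test of the difference itself, edgeR's quasi-likelihood interaction term. On the log2 scale it was lower at 7 days for Spry1 (-1.2), Dusp4 (-1.08), Etv4 (-1.06), Dusp6 (-0.98), Spry4 (-0.9), Spred1 (-0.48) and Etv5 (-0.47), and higher for Spry2 (0.73). The DMSO libraries of 7 days stood above those of 48 hours for all of these but Spry2, and the part of that shift in the differences was not tested.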

How the results depend on the processing

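Apart from an added threshold on the fold change, the calls and directions of Dusp4, Dusp5, Dusp6, Etv4, Etv5, Spry2 and Spry4 with sorafenib held at both times under every alternative run. A minimum of 1 on the absolute log2 scale, added to the FDR, left 5 genes higher (Dusp4, Dusp6, Spry1, Etv4 and Etv5) and 0 lower at 48 hours, and 1 higher (Dusp4) and 0 lower at 7 days. The same threshold left 0 higher and 3 lower for the difference between times, 4 higher and 0 lower for DMSO over time, and 0 higher and 0 lower for sorafenib over time. The share of all tested genes that pass this threshold is not given here, so these counts have no background beside them. The differences not called turned sign: for Dusp5 to 0.05 with total counts and 0.02 with at least 10 counts in every sample (-0.16 to 0.05 with 1 library left out), and for Spred2 to 0.07, 0.05 and, with TMM separately before and after the step, 0.01 (-0.03 to 0.02 with 1 library left out). The cause was not tested.

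The Etv5 difference lost its call with total counts (-0.37, edgeR FDR = 0.0558), with at least 10 counts in every sample (-0.4, 0.0548), and without DMSO 48 h replicate 1 or 3, sorafenib 48 h replicate 1, 3 or 4, or DMSO 7 d replicate 1 (FDR 0.0517 to 0.0961). With the replicate block it was -0.44 (edgeR FDR = 0.0574), and the block left 8 genes higher and 2 lower at 48 hours and 7 and 3 at 7 days. Deviations of same-numbered libraries gave correlations of -0.0483 to 0.0106 at 48 hours, against -0.00612 to 0.021 for other numbers. At 7 days these were -0.0074 to 0.123, against -0.045 to -0.00414, and above the other numbers for replicates 2 to 4 (0.0511, 0.123 and 0.105). Whether same-numbered libraries share a culture or a batch was not tested. The rise of Dusp6 over time with sorafenib lost its call without sorafenib 7 d replicate 3 (FDR = 0.0721) or 4 (0.0563). With no length, Spred1 over Dusp4 was 7.58, 1.25, 2.25 and 0.56 in DMSO 48 h, sorafenib 48 h, DMSO 7 d and sorafenib 7 d, against 2.81, 0.465, 0.833 and 0.207 per kilobase. Of the single-gene values, 1159 kept direction and call, 17 lost the call, 14 turned sign, and the 4 ratios moved. Depth limits Etv1, Fgfr4 and Ereg in vehicle.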
